A study of Homo sapiens with 21 samples.

Results

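The 36 genes described here are a set drawn up around the sterol regulatory element binding proteins (SREBPs): 6 regulators of the pathway, 7 enzymes of the early mevalonate steps, 11 enzymes from squalene onward, 8 enzymes of fatty acid synthesis and desaturation, and 4 genes of lipid efflux and handling. They were taken by symbol from an expression table of 34021 genes, in which all 36 were present. Of them, 35 reached 1 FPKM in 3 or more libraries and were tested. The exception was STARD4, a gene for a soluble sterol carrier, which was listed at 0 in every library but Osi_cIGF1R replicate 2, where it was listed at 0.00426 FPKM. FPKM are fragments counted at a gene per length of the gene and size of the library. The table names no unit, and FPKM was inferred from its values.

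RNA sequencing was run on H1975, an established human non-small cell lung cancer line with a mutated epidermal growth factor receptor (EGFR), in 3 groups of 3 libraries, each after 8 days. The group DMSO_EV had the vehicle DMSO and EV, an abbreviation the labels do not spell out. Osi_Lin_EV had 500 nM osimertinib, which blocks mutant EGFR covalently, with 500 nM linsitinib, which inhibits the kinases of IGF1R (the type 1 insulin-like growth factor receptor) and the insulin receptor, and EV, which stands in the sample titles only. Osi_cIGF1R had 500 nM osimertinib and overexpression of cIGF1R, a circular RNA of the IGF1R gene, without linsitinib. Cells given osimertinib with EV but no linsitinib were not analysed here, so the drugs and the circular RNA differ together between Osi_cIGF1R and each other group and their shares in a difference cannot be told apart. The labels do not say whether replicates came from separate cultures, so p-values here cover library-to-library spread, possibly only technical. They also leave unsettled whether RNase R, which digests linear RNA, was used on these libraries. In bulk RNA, fewer cells that express a gene and less RNA of it per cell cannot be told apart.

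SREBPs are made as precursors in the membrane of the endoplasmic reticulum. When sterols are scarce, SCAP escorts them to the Golgi, where the proteases encoded by MBTPS1 and MBTPS2 release the active factor, and when sterols are plentiful the INSIG proteins hold SCAP back. The SREBF2 product acts mainly on cholesterol synthesis and uptake genes and the SREBF1 product mainly on fatty acid genes. Liver X receptors, which sense oxysterols, act on the opposite arm through efflux transporters such as ABCA1 and ABCG1, and also on SREBF1 itself.

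SREBPs bind sterol regulatory elements, usually next to boxes for the factors NF-Y and Sp1, so the promoters were searched for these letters. RefSeq windows of GRCh38.p14, from 250 bases before to 50 bases after each start, were found for 31 of the 36 genes. The 5 stretches below are shown because they hold the NF-Y box in SREBF2, whose window alone also held the searched sterol element, and in the 4 NF-Y box genes with the largest differences between the treated groups. Each is read 5′ to 3′ on the gene's own strand and lies wholly before the start. Capitals mark motif matches: CCAAT or its reverse complement ATTGG (NF-Y), GGGCGG (Sp1, in MSMO1) and TCACCCCAC (the sterol element, in SREBF2).
INSIG1, chr7:155297678-155297742, plus strand: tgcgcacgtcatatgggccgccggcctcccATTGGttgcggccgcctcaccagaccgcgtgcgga
HMGCS1, chr5:43313478-43313542, minus strand: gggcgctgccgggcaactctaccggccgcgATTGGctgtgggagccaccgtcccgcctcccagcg
MSMO1, chr4:165327605-165327668, plus strand: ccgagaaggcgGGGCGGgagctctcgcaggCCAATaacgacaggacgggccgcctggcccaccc
SCD, chr10:100347017-100347081, plus strand: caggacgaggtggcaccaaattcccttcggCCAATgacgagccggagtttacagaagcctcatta
SREBF2, chr22:41832969-41833033, plus strand: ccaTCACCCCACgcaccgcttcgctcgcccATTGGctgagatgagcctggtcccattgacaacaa

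On both strands, the NF-Y box CCAAT was found in the windows of 21 of the 31 genes (67.7%), against 39.7% of all 27305 genes with a window and 42.1% of the 15843 protein-coding ones. The Sp1 box GGGCGG was found in 30 of the 31 (96.8%), against 48.3% of all genes and 64.3% of coding genes. The sterol element core, searched as TCACNCCAC, matched 1 of the 31, SREBF2, against 1.39% of all genes. In the SREBF2 stretch the element lies upstream of the NF-Y box. The direct repeat of liver X receptors, AGGTCA repeated after a spacer of 4 bases, matched none of the 31 and 0.0256% of all genes. Matches of different motifs may share letters, and a match describes these windows only.

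All 7 epithelial markers searched for, among them EPCAM, KRT8 and KRT18, were above 1 FPKM in every library, with summed levels between 11400 and 16000 FPKM. Of the alveolar markers NKX2-1, SFTPB, SFTPC and NAPSA, the first 3 stayed near 0 and the summed level was 0.64 to 2.16 FPKM. The 4 leukocyte markers summed to 1.44 to 1.99 FPKM in DMSO_EV, 1.07 to 2.25 in Osi_Lin_EV and 2.27 to 4.25 in Osi_cIGF1R, mostly from CD14, which rose in Osi_cIGF1R (limma, adjusted p = 0.0153), while PTPRC and CD3E were near 0. The 4 fibroblast markers in the table summed to 3.35 to 3.74 FPKM in DMSO_EV, 3.21 to 3.55 in Osi_Lin_EV and 5.53 to 6.05 in Osi_cIGF1R, nearly all from COL1A1, which rose in Osi_cIGF1R (limma, adjusted p = 9.94e-05), while COL1A2, COL3A1 and DCN were near 0. The 3 endothelial markers in the table also moved with the groups, at 3.55 to 4.08 FPKM in DMSO_EV, 0.135 to 0.207 in Osi_Lin_EV and 0.736 to 0.955 in Osi_cIGF1R. In DMSO_EV most of this came from CDH5, at a mean of 3.37 FPKM. Means of CDH5, PECAM1 and VWF were 0.114, 0.0303 and 0.0325 FPKM in Osi_Lin_EV and 0.482, 0.255 and 0.131 in Osi_cIGF1R. PECAM1 and VWF were at most 0.395 and 0.158 FPKM in any library. The part of these markers in the results was not tested. Mitochondrial transcripts took 20.3% to 30.4% of the FPKM in DMSO_EV, 20.4% to 25.6% in Osi_Lin_EV and 6.08% to 7.28% in Osi_cIGF1R. RN7SL1, a small RNA of the signal recognition particle that was chosen after its values were seen, set 2 libraries apart, at 443 FPKM in DMSO_EV replicate 2 against 46.4 and 36.1 in the others, and at 53.2 in Osi_cIGF1R replicate 1 against 3.16 and 6.37.

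Summed over the 36 genes, the level was 1013 to 1178 FPKM in DMSO_EV, 764 to 863 in Osi_Lin_EV and 1545 to 1612 in Osi_cIGF1R, so the 3 groups did not overlap. Levels per length differed widely between genes, from a mean of 1.46 FPKM for ABCG1 to 166 FPKM for SCD in DMSO_EV, with a median of 13.2 FPKM over the 35 tested. By class, the sum of the 5 tested regulators was 100.8 to 117.2 FPKM in Osi_Lin_EV, 132 to 148 in DMSO_EV and 241 to 242 in Osi_cIGF1R. The early mevalonate enzymes summed to 153 to 164, 228 to 239 and 221 to 270 FPKM in the same order, so Osi_cIGF1R overlapped DMSO_EV. FDPS was the largest part of these sums, with means of 130 FPKM in DMSO_EV and 85.7 in Osi_cIGF1R. MVK and PMVK were also lower by mean in Osi_cIGF1R, and the others of the class were higher. Sums of the sterol enzymes were 266 to 296, 278 to 326.5 and 399 to 435 FPKM, so Osi_Lin_EV overlapped DMSO_EV. TM7SF2 was the largest part of the Osi_Lin_EV sum, with means of 77.3 FPKM there and 18.9 in DMSO_EV. By mean, LSS and SC5D were also higher in Osi_Lin_EV than in DMSO_EV, and the others of the class were lower. Efflux and handling genes summed to 12.1 to 12.8, 14.8 to 17.9 and 21.2 to 29.8 FPKM. The fatty acid enzymes summed to 233 to 272, 359 to 455 and 577 to 714 FPKM in the same order, the last mostly through SCD. Mean SCD was 166 FPKM in DMSO_EV and 433 in Osi_cIGF1R, where mean FASN was 158 and 140. Of the others in the class, ACSS2 and FADS2 were also higher by mean in Osi_cIGF1R, and ACLY, ACACA, ELOVL6 and FADS1 were lower. SCD was also the largest single part of the 36-gene sum in Osi_cIGF1R. Within DMSO_EV, replicate 1 had the lowest value for 24 of the 35 genes, and within Osi_Lin_EV replicate 3 had the lowest for 30 of the 35. These were also the libraries with the largest mitochondrial share of their group, at 30.4% and 25.6%, whose part in the lower values was not tested. In Osi_cIGF1R, replicate 3, with the smallest mitochondrial share of the group, 6.08%, had the lowest value for 16 of the 35 genes and the highest for 17. Replicate 1, at 6.75%, had the lowest for 13 and the highest for 12. Replicate 2, with the largest share there, 7.28%, had the lowest for 6 and the highest for 6.

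**Figure D1:**
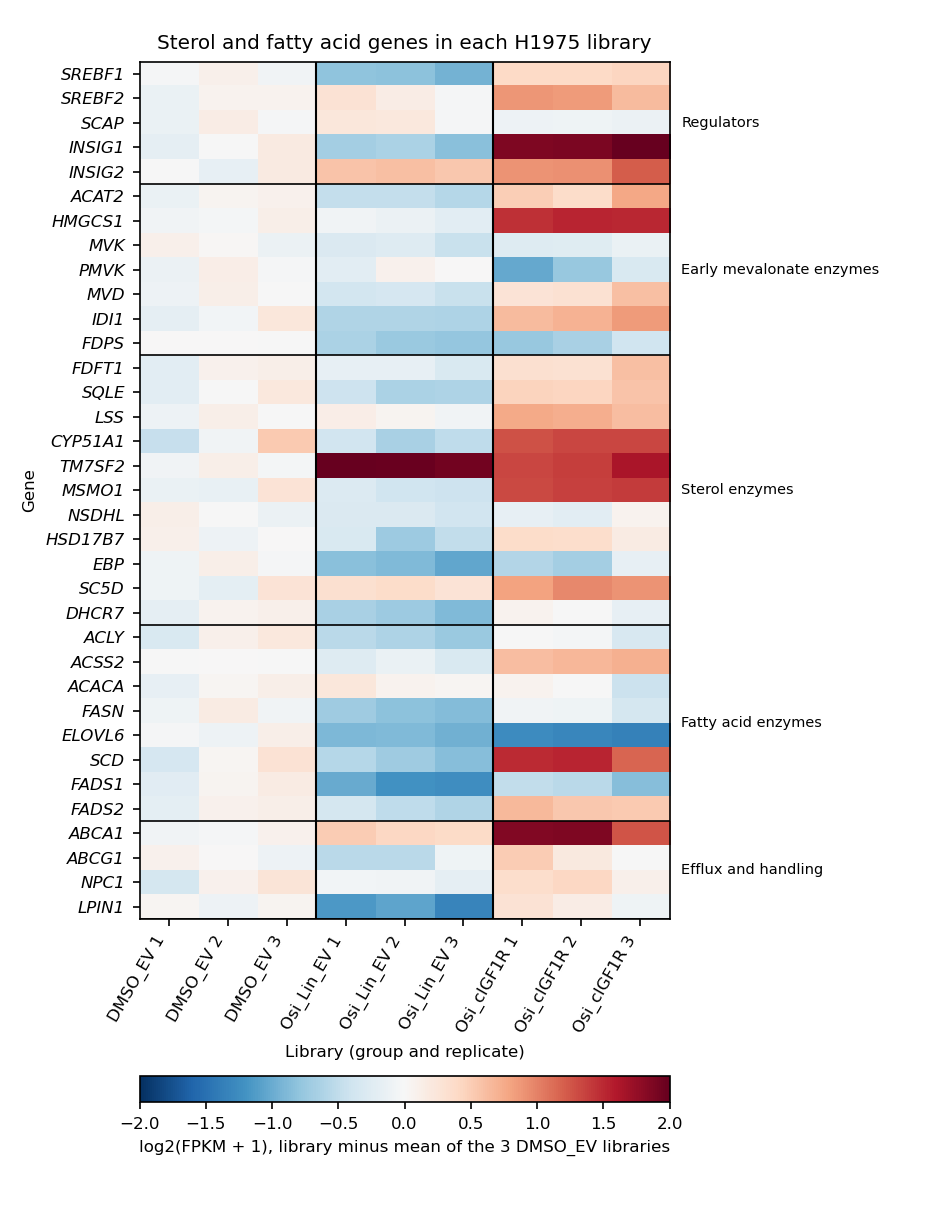
Each row is a gene and each column a library; colour gives log2(FPKM + 1) in that library minus the mean of the 3 DMSO_EV libraries, from blue (lower) to red (higher), limited to -2 and 2, with genes grouped by class. Most genes are blue in Osi_Lin_EV and red in Osi_cIGF1R, while TM7SF2, INSIG2, SC5D and ABCA1 are red in both and ELOVL6, FADS1, EBP and FDPS are blue in both.

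Differences were tested on the log2(FPKM + 1) scale with limma over all 13775 genes that passed the filter, and a gene was called at a Benjamini-Hochberg adjusted p under 0.05. Values on this scale understate the change of low genes. With osimertinib and linsitinib (Osi_Lin_EV against DMSO_EV), 4 of the 35 genes rose and 23 fell, or 11.4% and 65.7%, where 29% of all genes tested were called higher and 23.5% lower. The median log2 difference of the 35 was -0.39, beside 0.05 over all genes. Among the 35, 1 rose and 2 fell by at least 1 on the log2 scale, where 3.65% and 5.54% of all genes did.

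With osimertinib and the circular RNA (Osi_cIGF1R against DMSO_EV), 20 of the 35 rose and 5 fell, or 57.1% and 14.3%, where 33.1% of all genes were called higher and 35.8% lower. The median was 0.40, beside -0.03 over all genes. By at least 1 on the log2 scale, 8 rose and 1 fell, where 10.4% and 11.4% of all genes did. Between the treated groups (Osi_cIGF1R against Osi_Lin_EV), 27 were higher and 3 lower, or 77.1% and 8.57%, where 25.9% and 34.8% of all genes were. The median was 0.65, beside -0.09 over all genes. There 12 of the 35 were higher by at least 1 and none lower, where 6.58% and 4.38% of all genes were. Both contrasts with DMSO_EV share their control libraries, and all 3 share libraries pairwise, so they are not independent of each other.

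Without DMSO_EV replicate 2, 2 genes rose and 20 fell in the first comparison, 19 and 5 in the second, and 27 and 4 in the third. Without Osi_cIGF1R replicate 1, these counts were 4 and 22, 19 and 5, and 26 and 3. With mitochondrial transcripts at a lower share in Osi_cIGF1R, rescaling the libraries to equal totals lifted the median of all genes to 0.25 against DMSO_EV, with 47.3% called higher and 23.3% lower and 24 and 3 of the 35. Against Osi_Lin_EV it lifted the median to 0.14, with 37.6% higher and 20% lower and 30 and 2 of the 35. With equal totals outside the mitochondrial genes, 20 and 5, and 28 and 3, of the 35 were called. With equal totals the rises of SREBF1, ACAT2, MVD, FDFT1, SQLE, HSD17B7 and FADS2 in Osi_cIGF1R, each at most 0.58 against DMSO_EV in the fit reported, measured 0.74, 0.87, 0.72, 0.74, 0.81, 0.59 and 0.89, and all were called.

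**Figure D2:**
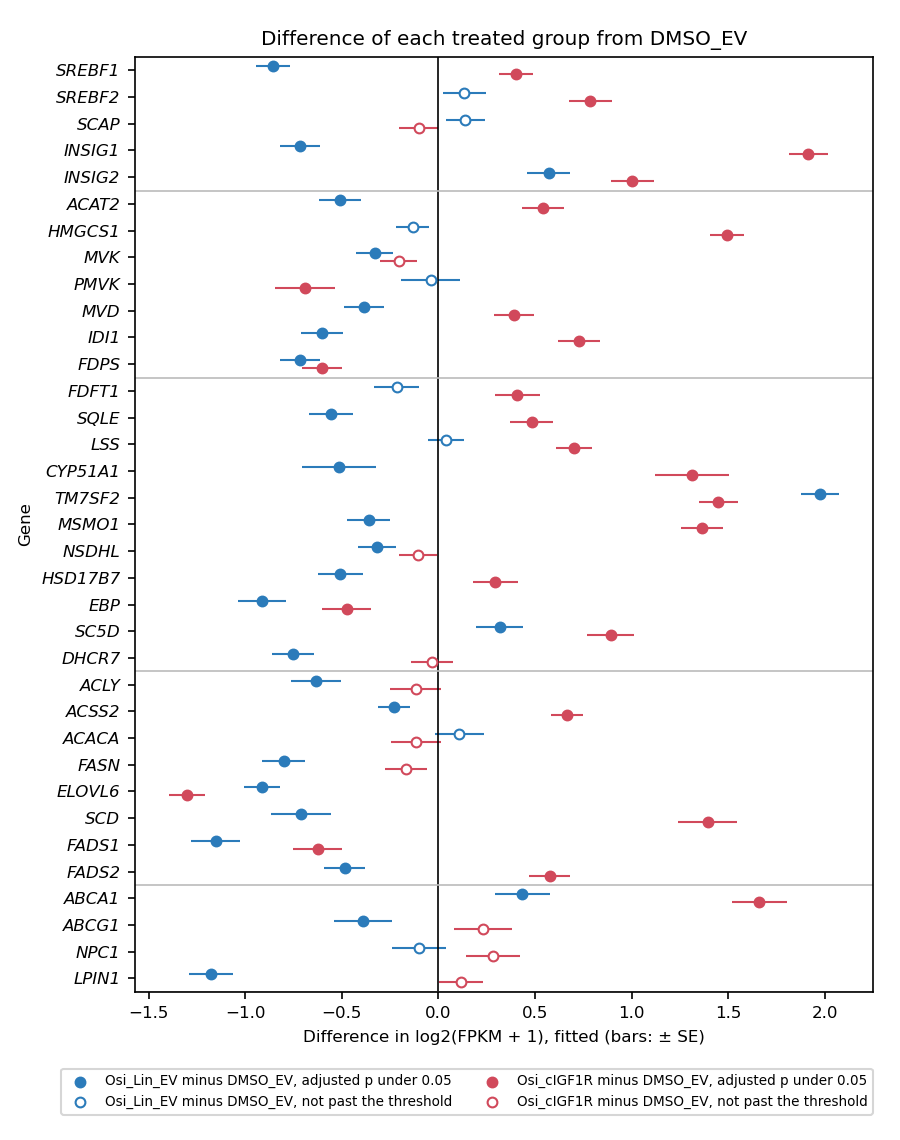
Points give the fitted difference in log2(FPKM + 1) of Osi_Lin_EV (blue) and Osi_cIGF1R (red) from DMSO_EV for the 35 tested genes, with bars of 1 SE, filled where the adjusted p was under 0.05. INSIG1, HMGCS1, SCD and MSMO1 have red points above 1.3 and blue points below 0, and TM7SF2 has both above 1.4.

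Among the tested regulators, INSIG1 had the largest log2 difference between the treated groups. INSIG1, which retains SCAP in the endoplasmic reticulum and is itself an SREBP target, was at 13.6, 15.4 and 17.6 FPKM in DMSO_EV, 9.26, 9.61 and 8.25 in Osi_Lin_EV and 59.4, 59.7 and 64.7 in Osi_cIGF1R. The 3 groups did not overlap. INSIG1 fell by 0.72 ± 0.10 (SE) on the log2 scale in Osi_Lin_EV (limma, adjusted p = 6.53e-05) and rose by 1.92 ± 0.10 in Osi_cIGF1R (limma, adjusted p = 2.08e-09), a ratio of mean levels of 3.93. Between the treated groups its level differed 6.77-fold (log2 difference 2.63, limma, adjusted p = 1.46e-10). Its stretch printed above carries an NF-Y box that starts 170 bases before the start. Its paralogue INSIG2 took another order, at 5.89, 5.18 and 6.85 FPKM in DMSO_EV, 9.30, 9.56 and 9.08 in Osi_Lin_EV and 11.92, 12.03 and 15.01 in Osi_cIGF1R. INSIG2 rose in both treated groups, by 0.57 ± 0.11 (limma, adjusted p = 0.000795) and 1.004 ± 0.11 (limma, adjusted p = 3.06e-06).

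The genes of the factors themselves differed from each other. SREBF1 was at 68.84, 74.97 and 66.74 FPKM in DMSO_EV, 39.6, 39.1 and 36.1 in Osi_Lin_EV and 92.3, 92.3 and 94.3 in Osi_cIGF1R, again with no overlap between groups. It fell by 0.86 ± 0.09 in Osi_Lin_EV (limma, adjusted p = 3.07e-06) and rose by 0.40 ± 0.09 in Osi_cIGF1R (limma, adjusted p = 0.0011). SREBF2 was at 32.2, 37.2 and 37.1 FPKM in DMSO_EV, 43.4, 39.3 and 34.6 in Osi_Lin_EV and 66.1, 64.7 and 55.3 in Osi_cIGF1R. Here the first 2 groups overlapped, with a difference of 0.13 ± 0.11 (limma, adjusted p = 0.325), and Osi_cIGF1R lay above both, by 0.79 ± 0.11 against DMSO_EV (limma, adjusted p = 2.55e-05). In the annotation SREBF1 overlaps RAI1 and the microRNA genes MIR6777 and MIR33B, and SREBF2 overlaps SREBF2-AS1 and the microRNA gene MIR33A. Reads of overlapping genes cannot be told apart where counting did not use strand, which the sources used here do not give. Other genes of the 36 also overlap annotated genes, among them INSIG1, IDI1, CYP51A1, ABCA1, NPC1 and LPIN1.

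SCAP, the escort protein, was the steadiest of the regulators, at 11.9, 14.7 and 12.8 FPKM in DMSO_EV, 15.6, 15.3 and 12.8 in Osi_Lin_EV and 12.14, 12.31 and 12.01 in Osi_cIGF1R. Neither treated group was called against DMSO_EV, with differences of 0.14 ± 0.10 (limma, adjusted p = 0.27) and -0.10 ± 0.10 (limma, adjusted p = 0.389). Osi_cIGF1R lay below Osi_Lin_EV by 0.24, just outside the threshold (limma, adjusted p = 0.056), and was called without DMSO_EV replicate 1 (adjusted p = 0.041), DMSO_EV replicate 2 (0.0489) or Osi_Lin_EV replicate 3 (0.0236). Of the 5 tested regulators, 1 rose and 2 fell in Osi_Lin_EV and 4 rose and 0 fell in Osi_cIGF1R, each against DMSO_EV. The shares, 20% and 40%, then 80% and 0%, stand beside 29% and 23.5%, then 33.1% and 35.8%, of all genes tested.

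**Figure D3:**
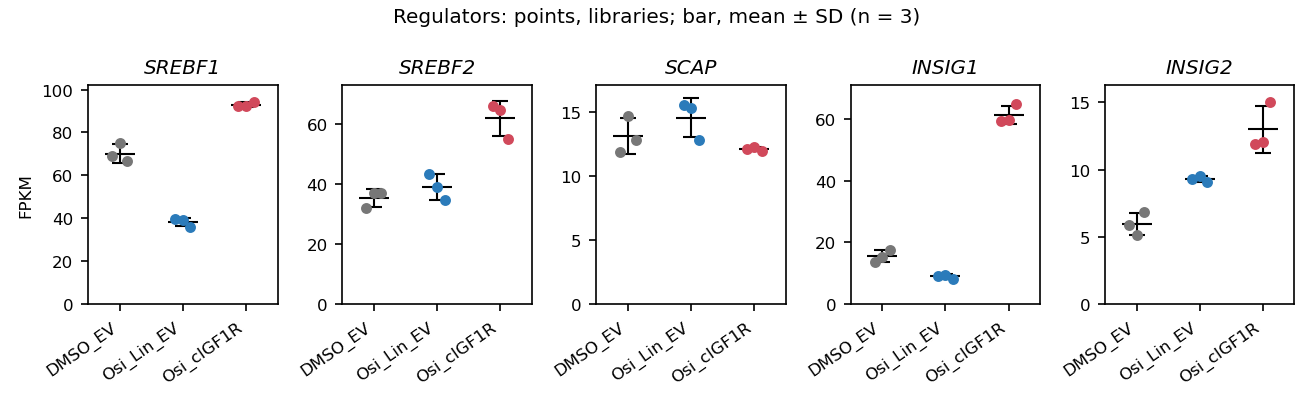
FPKM of the 5 tested regulators in each library (points) by group, with bars at the mean ± SD (n = 3). INSIG1 and SREBF1 are lowest in Osi_Lin_EV and highest in Osi_cIGF1R, INSIG2 is lowest in DMSO_EV, and the SCAP values of DMSO_EV and Osi_cIGF1R overlap.

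The early mevalonate enzymes build farnesyl diphosphate from acetyl-CoA. Of the 7, 5 fell and 0 rose in Osi_Lin_EV, 4 rose and 2 fell in Osi_cIGF1R, and 4 were higher and 1 lower in Osi_cIGF1R than in Osi_Lin_EV. As shares these are 71.4% and 0%, then 57.1% and 28.6%, then 57.1% and 14.3%. Of all genes tested, 23.5% and 29%, then 33.1% and 35.8%, then 25.9% and 34.8% were called so. HMGCS1, which makes the HMG-CoA used for mevalonate, was at 12.01, 12.2 and 13.7 FPKM in DMSO_EV, 12.03, 11.5 and 10.8 in Osi_Lin_EV and 36.3, 38.1 and 37.7 in Osi_cIGF1R. Its DMSO_EV and Osi_Lin_EV values overlapped slightly, with a difference of -0.13 ± 0.09 (limma, adjusted p = 0.212), while all Osi_cIGF1R values lay far above the rest. The rise was 1.49 ± 0.09 against DMSO_EV (limma, adjusted p = 4.72e-09), and no other gene overlaps HMGCS1 in the annotation.

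IDI1, the isomerase that makes dimethylallyl diphosphate, was at 10.4, 11.4 and 14.1 FPKM in DMSO_EV, 7.49, 7.50 and 7.41 in Osi_Lin_EV and 18.9, 19.8 and 22.3 in Osi_cIGF1R. The groups were apart, with a fall of 0.60 ± 0.11 (limma, adjusted p = 0.000425) and a rise of 0.73 ± 0.11 (limma, adjusted p = 4.72e-05). ACAT2, the cytosolic thiolase of the first step, was at 19.4, 22.3 and 22.8 FPKM in DMSO_EV, 15.1, 15.2 and 14.1 in Osi_Lin_EV and 30.5, 27.9 and 37.3 in Osi_cIGF1R. It too fell, by 0.51 ± 0.11, and rose, by 0.54 ± 0.11 (limma, adjusted p = 0.0016 and 0.000621). ACAT2 overlaps SOD2 and TCP1, and the table also holds a pseudogene of IDI1 and 6 of FDPS, whose reads can be shared. The same holds for pseudogenes of CYP51A1 and HSD17B7, and MVK overlaps MMAB.

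The other members of this class did not follow one course. MVD, the decarboxylase, had means of 36.9, 28.0 and 48.8 FPKM in DMSO_EV, Osi_Lin_EV and Osi_cIGF1R, a fall and a rise that were both called. FDPS, which makes farnesyl diphosphate, fell in both treated groups, from 130 ± 0.49 FPKM (SD, n = 3) to 79.0 ± 4.27 and 85.7 ± 11.2, by 0.72 and 0.60 on the log2 scale (limma, adjusted p = 6.99e-05 and 0.000156). PMVK, the second kinase of the pathway, was 9.91 ± 0.93 in DMSO_EV and 9.62 ± 1.10 in Osi_Lin_EV and fell to 5.89 ± 1.78 FPKM in Osi_cIGF1R (limma, adjusted p = 0.00137). MVK, the first kinase, fell in Osi_Lin_EV by 0.33 (limma, adjusted p = 0.0104), a call lost without Osi_Lin_EV replicate 3 (limma, adjusted p = 0.0561), and its difference in Osi_cIGF1R was -0.21 (limma, adjusted p = 0.0688), which was called without DMSO_EV replicate 3 (0.0258) or Osi_cIGF1R replicate 3 (0.0403). With equal totals, the falls of FDPS and PMVK in Osi_cIGF1R shrank to 0.27 and 0.40 on the log2 scale and were still called.

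Of the 11 enzymes from squalene onward, 2 rose and 7 fell in Osi_Lin_EV, 8 rose and 1 fell in Osi_cIGF1R, and 9 were higher and 1 lower in Osi_cIGF1R than in Osi_Lin_EV. That is 18.2% and 63.6%, then 72.7% and 9.09%, then 81.8% and 9.09%. The shares of all genes tested were 29% and 23.5%, then 33.1% and 35.8%, then 25.9% and 34.8%. TM7SF2, a sterol C14 reductase, was at 17.9, 20.6 and 18.3 FPKM in DMSO_EV and 80.1, 77.0 and 74.8 in Osi_Lin_EV. In Osi_cIGF1R its values were 49.4, 50.7 and 60.8 FPKM, between the others. Its rise of 1.98 ± 0.10 in Osi_Lin_EV, a 4.08-fold change of the mean level, was the largest among the 35 genes in that comparison (limma, adjusted p = 3.49e-09). Against DMSO_EV it also rose in Osi_cIGF1R, by 1.45 ± 0.10, and it was lower there than in Osi_Lin_EV by 0.53 (limma, adjusted p = 2.81e-08 and 0.000564). LBR, a gene outside the 36 whose product has the same reductase activity, went the other way, from 18.1, 17.7 and 22.9 FPKM in DMSO_EV to 8.59, 8.00 and 8.24 in Osi_Lin_EV and 9.61, 9.96 and 9.58 in Osi_cIGF1R (limma, adjusted p = 7.95e-07 and 2.35e-06).

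MSMO1, the sterol C4 methyl oxidase, was at 15.3, 15.1 and 20.4 FPKM in DMSO_EV, 13.7, 12.5 and 12.4 in Osi_Lin_EV and 43.4, 45.1 and 46.1 in Osi_cIGF1R. It rose by 1.36 ± 0.11 in Osi_cIGF1R (limma, adjusted p = 1.29e-07). Its fall of 0.36 in Osi_Lin_EV (limma, adjusted p = 0.0141) was -0.23 without DMSO_EV replicate 3 (adjusted p = 0.0463) and was lost without Osi_Lin_EV replicate 2 (0.0504). CYP51A1, the lanosterol demethylase, was at 5.66, 7.74 and 12.1 FPKM in DMSO_EV, 6.01, 4.82 and 5.40 in Osi_Lin_EV and 21.04, 22.01 and 22.12 in Osi_cIGF1R. The spread in DMSO_EV was the widest of the class relative to its mean, and Osi_Lin_EV overlapped it. The rise in Osi_cIGF1R was 1.31 ± 0.19 (limma, adjusted p = 8.39e-05). The fall of 0.51 ± 0.19 in Osi_Lin_EV (limma, adjusted p = 0.0417) lost its call when any library but DMSO_EV replicate 1 was left out, with adjusted p between 0.0519 and 0.122, and measured -0.26 without DMSO_EV replicate 3 (adjusted p = 0.111).

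SQLE, the epoxidase, LSS, the cyclase that makes lanosterol, and FDFT1, squalene synthase, rose in Osi_cIGF1R by 0.48, 0.70 and 0.41 (limma, adjusted p = 0.00168, 1.71e-05 and 0.00706). In Osi_Lin_EV, SQLE fell by 0.56, whereas LSS differed by 0.04 (limma, adjusted p = 0.743) and FDFT1 by -0.22 (limma, adjusted p = 0.139, and 0.0313 without DMSO_EV replicate 1). SC5D, the C5 desaturase, had low levels of 1.93 ± 0.52 FPKM in DMSO_EV (SD, n = 3), 2.61 ± 0.12 in Osi_Lin_EV and 4.38 ± 0.31 in Osi_cIGF1R and rose by 0.89 in Osi_cIGF1R. Its rise of 0.32 in Osi_Lin_EV (limma, adjusted p = 0.0405) was lost without any 1 of DMSO_EV replicates 1 and 2 or of the 3 Osi_Lin_EV libraries, with adjusted p between 0.0649 and 0.176. HSD17B7, a ketoreductase of C4 demethylation, fell by 0.51 and rose by 0.29, the rise (limma, adjusted p = 0.0396) being lost without DMSO_EV replicates 2 or 3, Osi_cIGF1R replicates 1 or 2 or Osi_Lin_EV replicate 3, with adjusted p between 0.05 and 0.136.

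The remaining 3 enzymes of the class fell with osimertinib and linsitinib. EBP, the sterol isomerase, was 32.4 ± 2.46 FPKM in DMSO_EV (SD, n = 3), 16.7 ± 1.28 with both drugs and 23.2 ± 4.76 in Osi_cIGF1R, falls of 0.91 and 0.48 on the log2 scale (limma, adjusted p = 4.42e-05 and 0.00414). The second of these was -0.15 with equal totals and then not called (limma, adjusted p = 0.281), and the value of Osi_cIGF1R replicate 3, 28.7, was above the 21.1 and 19.9 of the other replicates. DHCR7, the reductase that ends one branch of the pathway, fell to 54.9 ± 4.45 from 93.5 ± 9.54 FPKM in Osi_Lin_EV (limma, adjusted p = 6.81e-05) and was 91.2 ± 7.89 in Osi_cIGF1R, which overlapped DMSO_EV. NSDHL, a dehydrogenase of C4 demethylation, fell by 0.32 in Osi_Lin_EV, a call lost without DMSO_EV replicate 1 (limma, adjusted p = 0.0502) or Osi_Lin_EV replicate 3 (0.0608). In Osi_cIGF1R it differed by -0.11 (limma, adjusted p = 0.361), which turned to 0.22 (adjusted p = 0.045) with equal totals.

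Of the 8 fatty acid enzymes, 7 fell and 0 rose in Osi_Lin_EV, 3 rose and 2 fell in Osi_cIGF1R, and 6 were higher and 1 lower in Osi_cIGF1R than in Osi_Lin_EV. These are 87.5% and 0%, then 37.5% and 25%, then 75% and 12.5%. Of all genes tested, 23.5% and 29%, then 33.1% and 35.8%, then 25.9% and 34.8% were called so. The count in Osi_cIGF1R against DMSO_EV is near that of all genes, so it is no result about the class. SCD, the stearoyl-CoA desaturase that makes monounsaturated fatty acids, was at 129, 168 and 200 FPKM in DMSO_EV, 110, 99.6 and 89.7 in Osi_Lin_EV and 463, 469 and 368 in Osi_cIGF1R. The groups did not overlap. It fell by 0.71 ± 0.15 (limma, adjusted p = 0.00165) and rose by 1.39 ± 0.15 (limma, adjusted p = 2.84e-06), and between the treated groups the mean levels differed 4.35-fold. The table holds 1 pseudogene of SCD, so some reads may be shared.

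ELOVL6, the elongase that acts just before SCD on palmitate, moved against SCD in Osi_cIGF1R. ELOVL6 was at 3.14, 2.90 and 3.55 FPKM in DMSO_EV, 1.24, 1.27 and 1.16 in Osi_Lin_EV and 0.747, 0.702 and 0.645 in Osi_cIGF1R. It fell by 0.91 ± 0.10 (limma, adjusted p = 3.58e-06) and 1.30 ± 0.10 (limma, adjusted p = 4.6e-08) on the log2(FPKM + 1) scale, the latter 2.04 with a pseudocount of 0.1, while the ratio of its mean levels was 4.58 between DMSO_EV and Osi_cIGF1R. It was lower in Osi_cIGF1R than in Osi_Lin_EV by 0.39, which was not called with equal totals (limma, adjusted p = 0.0541).

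FADS1 and FADS2, the delta-5 and delta-6 desaturases of polyunsaturated fatty acids, are neighbours that overlap on chromosome 11, so that reads of one may have been counted for the other. FADS1 was at 21.0, 25.6 and 27.9 FPKM in DMSO_EV, 11.8, 10.1 and 9.81 in Osi_Lin_EV and 17.2, 16.8 and 13.2 in Osi_cIGF1R. It fell by 1.15 ± 0.13 and 0.63 ± 0.13 (limma, adjusted p = 5.64e-06 and 0.000588), the second being -0.30 and not called with equal totals (adjusted p = 0.1). FADS2 fell by 0.49 in Osi_Lin_EV and rose by 0.58 in Osi_cIGF1R, from a mean of 12.3 to 8.44 and 18.7 FPKM (limma, adjusted p = 0.0016 and 0.000266).

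FASN and ACLY fell in Osi_Lin_EV and were not called in Osi_cIGF1R against DMSO_EV. FASN, the fatty acid synthase, averaged 158 ± 15.3 FPKM in DMSO_EV, 89.8 ± 5.29 with both drugs and 140 ± 15.03 with the circular RNA (SD, n = 3), a fall of 0.80 (limma, adjusted p = 4.48e-05) and a difference of -0.17 (limma, adjusted p = 0.19). ACLY, which makes cytosolic acetyl-CoA from citrate, fell by 0.63 in Osi_Lin_EV and differed by -0.12 in Osi_cIGF1R (limma, adjusted p = 0.00122 and 0.441). ACSS2, which makes acetyl-CoA from acetate, rose by 0.67 in Osi_cIGF1R (limma, adjusted p = 9.81e-06). Its fall of 0.23 in Osi_Lin_EV (limma, adjusted p = 0.0338) was lost without DMSO_EV replicate 2, Osi_cIGF1R replicate 2 or Osi_Lin_EV replicates 1 or 3, with adjusted p between 0.0522 and 0.131. ACACA, the acetyl-CoA carboxylase, was called in none of the 3 comparisons, with log2 differences of 0.11, -0.12 and -0.23 (limma, adjusted p = 0.5, 0.43 and 0.145).

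**Figure D4:**
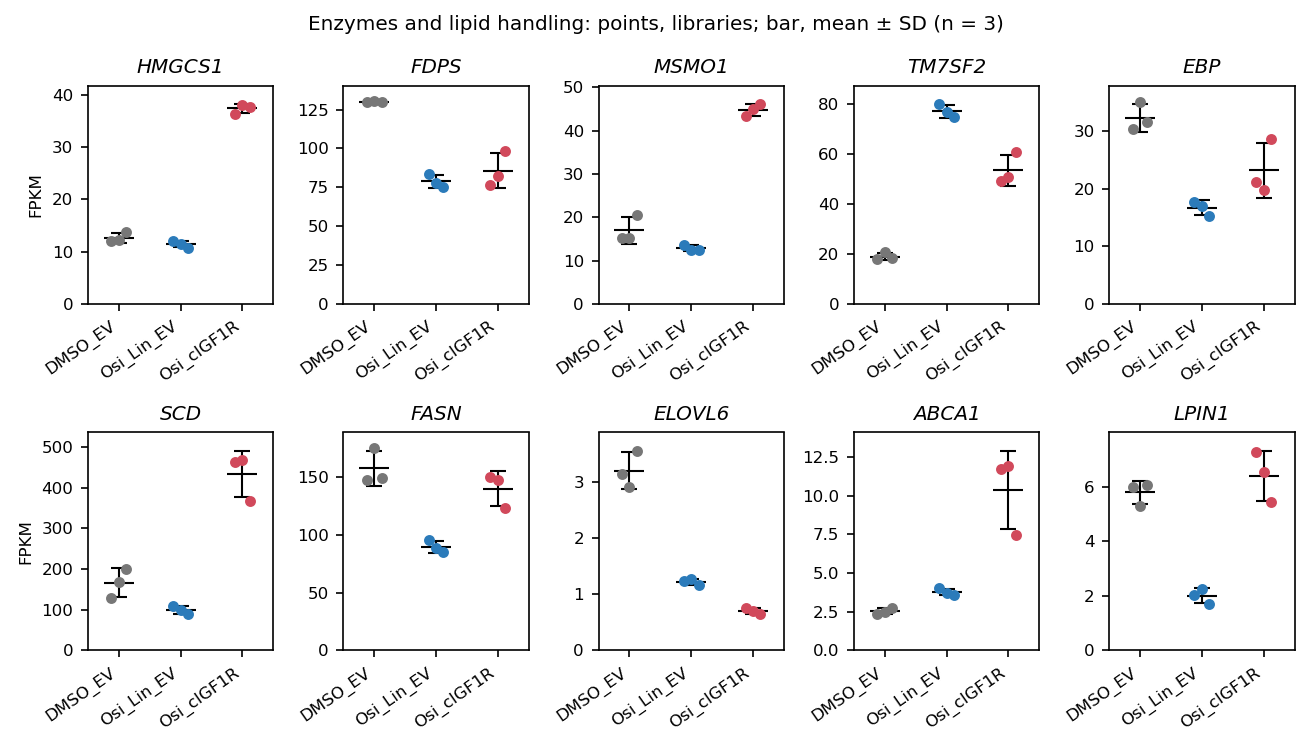
FPKM of 10 enzyme and handling genes in each library (points) by group, with bars at the mean ± SD (n = 3). HMGCS1, MSMO1 and SCD are highest in Osi_cIGF1R, TM7SF2 is highest in Osi_Lin_EV, and FDPS, EBP, FASN and ELOVL6 are highest in DMSO_EV by their means.

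ABCA1, which exports cholesterol to apolipoprotein A-I, rose in both treated groups. ABCA1 was at 2.38, 2.47 and 2.75 FPKM in DMSO_EV, 4.002, 3.71 and 3.59 in Osi_Lin_EV and 11.7, 11.9 and 7.44 in Osi_cIGF1R. The groups did not overlap, with rises of 0.43 ± 0.14 (limma, adjusted p = 0.0208) and 1.66 ± 0.14 (limma, adjusted p = 2.31e-07). The first was lost without DMSO_EV replicate 1 (adjusted p = 0.0572), DMSO_EV replicate 2 (0.0588) or Osi_Lin_EV replicate 1 (0.0641). ABCG1, a related transporter that loads high-density lipoprotein, was low, at 1.62, 1.47 and 1.29 FPKM in DMSO_EV, 0.684, 0.694 and 1.31 in Osi_Lin_EV and 2.48, 1.82 and 1.45 in Osi_cIGF1R. Its groups overlapped with DMSO_EV, and its call in Osi_Lin_EV (-0.39, limma, adjusted p = 0.0407) was lost without any 1 of the DMSO_EV libraries or Osi_Lin_EV replicates 1 or 2, with adjusted p between 0.0567 and 0.142. Between the treated groups ABCG1 did not overlap and was higher in Osi_cIGF1R by 0.62 (limma, adjusted p = 0.0028), a call kept when any 1 library was left out.

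LPIN1, a phosphatidate phosphatase that is an SREBP target, was at 6, 5.32 and 6.08 FPKM in DMSO_EV, 2.05, 2.25 and 1.72 in Osi_Lin_EV and 7.26, 6.54 and 5.43 in Osi_cIGF1R. Osi_Lin_EV lay below both other groups, which overlapped. LPIN1 fell by 1.18 ± 0.11 in Osi_Lin_EV (limma, adjusted p = 1.76e-06). In Osi_cIGF1R it differed by 0.12 from DMSO_EV (limma, adjusted p = 0.367, called at 0.41 with equal totals). NPC1, which moves cholesterol out of lysosomes, differed by -0.10 and 0.28 from DMSO_EV (limma, adjusted p = 0.562 and 0.0866), the latter called without DMSO_EV replicate 3 (0.019) or Osi_cIGF1R replicate 3 (0.0456). Its difference of 0.39 between the treated groups (limma, adjusted p = 0.0288) was lost without Osi_cIGF1R replicates 1 or 2 or Osi_Lin_EV replicates 2 or 3, with adjusted p between 0.0569 and 0.0991.

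The 12 genes higher by at least 1 in Osi_cIGF1R than in Osi_Lin_EV were SREBF1, INSIG1, ACAT2, HMGCS1, IDI1, SQLE, CYP51A1, MSMO1, SCD, FADS2, ABCA1 and LPIN1, which span all 5 classes. Of the 10 with a promoter window, 6 held the NF-Y box, as in the INSIG1, HMGCS1, MSMO1 and SCD stretches above, and 10 held the Sp1 box. For all 31 genes with a window the counts were 21 and 30.

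Genes of the same pathways outside the 36 were counted in the same way, from lists that the earlier results could have shaped. Of 8 tested genes of SREBP activation and sterol-controlled degradation, 2 rose and 1 fell in Osi_Lin_EV and 5 rose and 1 fell in Osi_cIGF1R. These shares were 25% and 12.5%, then 62.5% and 12.5%, where 29% and 23.5%, then 33.1% and 35.8%, of all genes tested were called. The rises in Osi_Lin_EV are near the share of all genes, so their count is no result about the list. MBTPS1, the site-1 protease, rose in both, from 15.5 to 23.7 and 22.9 FPKM (limma, adjusted p = 0.000199 and 0.000204). MBTPS2, the site-2 protease, rose from 2.495 to 4.99 FPKM in Osi_cIGF1R (limma, adjusted p = 0.000237) and was 2.32 FPKM in Osi_Lin_EV (adjusted p = 0.786), and the difference between the treated groups was 0.85 (adjusted p = 0.000215). AUP1, which takes part in the degradation of endoplasmic reticulum proteins, fell in Osi_cIGF1R by 0.57 (limma, adjusted p = 0.000129), or by 0.24 with equal totals.

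Of 6 other sterol-pathway genes, 1 rose and 4 fell in Osi_Lin_EV and 0 rose and 3 fell in Osi_cIGF1R. That is 16.7% and 66.7%, then 0% and 50%, beside 29% and 23.5%, then 33.1% and 35.8%, of all genes tested. TMEM97, the sigma-2 receptor that binds NPC1, fell in both treated groups, from 6.17, 5.20 and 7.21 FPKM to 1.57, 2.21 and 1.80 and to 1.65, 2.04 and 2.35 (log2 differences of -1.33 and -1.25, limma, adjusted p = 2.11e-06 and 1.56e-06). RDH11, a retinol dehydrogenase, fell in Osi_Lin_EV by 0.86 (limma, adjusted p = 8.93e-05), while its difference in Osi_cIGF1R was -0.17 (limma, adjusted p = 0.242, and 0.0386 without DMSO_EV replicate 1).

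Of 8 tested sterol handling genes, 4 rose and 0 fell in Osi_Lin_EV and 7 rose and 0 fell in Osi_cIGF1R. The shares were 50% and 0%, then 87.5% and 0%, beside 29% and 23.5%, then 33.1% and 35.8%, of all genes tested. LIPA, the lysosomal acid lipase that frees cholesterol and fatty acids from lipoproteins, was at 9.68, 13.2 and 16.4 FPKM in DMSO_EV, 13.3, 11.8 and 10.6 in Osi_Lin_EV and 176, 184 and 179 in Osi_cIGF1R. The first 2 groups overlapped, and LIPA rose 13.7-fold in mean level in Osi_cIGF1R (log2 difference 3.71 ± 0.15, limma, adjusted p = 8.68e-11). GRAMD1C, which carries cholesterol from the plasma membrane to the endoplasmic reticulum, rose by 0.74 and 2.02 and its paralogue GRAMD1A by 0.998 and 0.43 in Osi_Lin_EV and Osi_cIGF1R (limma, adjusted p at most 0.000686 in each). SCARB1, the receptor for high-density lipoprotein, rose by 0.58 and 0.73. SOAT1, which esterifies cholesterol for storage, rose in Osi_cIGF1R by 0.64 (limma, adjusted p = 0.000162).

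Of the 6 genes of liver X receptors and their targets, 2 rose and 0 fell in Osi_Lin_EV and 4 rose and 1 fell in Osi_cIGF1R. As shares these are 33.3% and 0%, then 66.7% and 16.7%, where 29% and 23.5%, then 33.1% and 35.8%, of all genes tested were called. The count of rises in Osi_Lin_EV is near the share of all genes and is no result about the list. SMPDL3A, a phosphodiesterase, rose in both, by 1.29 and 1.45, and LPCAT3, which remodels phospholipids, rose by 1.26 in Osi_cIGF1R (limma, adjusted p = 2.02e-05, 3.09e-06 and 4.58e-07). The LPCAT3 rise of 0.37 in Osi_Lin_EV was lost without DMSO_EV replicate 1 (limma, adjusted p = 0.0641), Osi_Lin_EV replicate 1 (0.07) or Osi_Lin_EV replicate 2 (0.0682). MYLIP, which degrades lipoprotein receptors, rose by 0.57 in Osi_cIGF1R. The receptor genes went apart there, NR1H2 higher by 0.58 and NR1H3 lower by 0.51 (limma, adjusted p = 0.00017 and 0.0012), the fall of NR1H3 being -0.21 and not called with equal totals (adjusted p = 0.109). Of the oxysterol enzymes, CH25H was at or below 0.0306 FPKM in every library and was not tested, while HSD3B7 and CYP27A1 rose in both treated groups, CYP27A1 in Osi_cIGF1R by 0.54, or by 0.35 without DMSO_EV replicate 3, and not called there without the filter on low values (limma, adjusted p = 0.0507).

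Of 15 tested other fatty acid genes, 3 rose and 4 fell in Osi_Lin_EV and 5 rose and 6 fell in Osi_cIGF1R. These shares, 20% and 26.7%, then 33.3% and 40%, are near those of all genes tested given above, so the counts are no result about the list. ACSL1, which activates long-chain fatty acids, was at 14.1, 14.1 and 16.6 FPKM in DMSO_EV, 15.7, 14 and 13.6 in Osi_Lin_EV and 85.7, 87.2 and 77.4 in Osi_cIGF1R (log2 difference 2.41 ± 0.10 from DMSO_EV, limma, adjusted p = 1.13e-10). Its relatives ACSL3 and ACSL4 fell in Osi_Lin_EV by 1.08 and 1.01 (limma, adjusted p = 3.85e-06 and 1.41e-05). In Osi_cIGF1R they differed from DMSO_EV by -0.34 and 0.23 (limma, adjusted p = 0.0156 and 0.11). That fall of ACSL3 was -0.015 and not called with equal totals (adjusted p = 0.925), and was lost without DMSO_EV replicate 3 (0.062). Further genes of lipid synthesis that rose in Osi_cIGF1R were SCD5, a second stearoyl-CoA desaturase, by 1.06 and LPIN2, a paralogue of LPIN1, by 1.12. With equal totals, the rises in Osi_cIGF1R of MBTPS1, MYLIP, NR1H2 and GRAMD1A were 0.86, 0.88, 0.91 and 0.77. LPIN3 rose in both treated groups, by 0.94 and 0.71, where LPIN1 fell in Osi_Lin_EV.

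**Figure D5:**
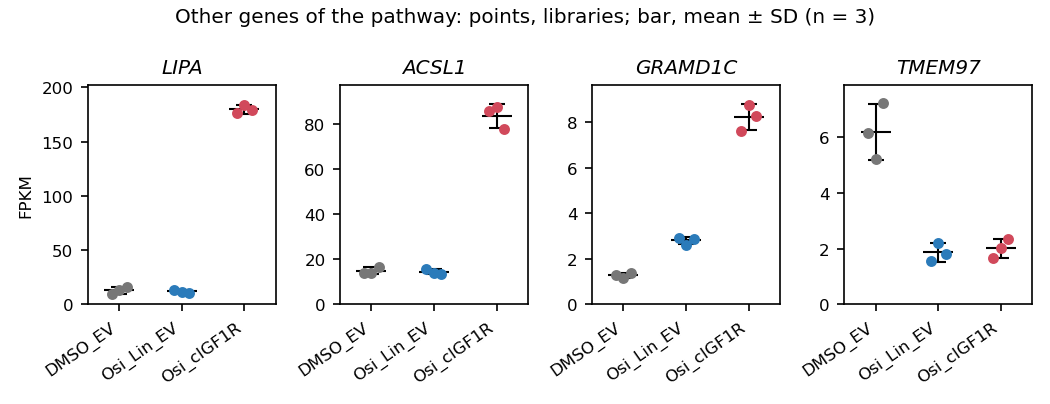
FPKM of 4 pathway genes outside the 36 in each library (points) by group, with bars at the mean ± SD (n = 3). LIPA and ACSL1 overlap in DMSO_EV and Osi_Lin_EV and stand several times higher in Osi_cIGF1R, GRAMD1C is highest in Osi_cIGF1R, and TMEM97 is highest in DMSO_EV.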

How the data were processed

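The authors deposited 1 table of 34021 genes with a column for each of the 9 RNA-seq libraries, and its values are taken as FPKM. The file names no unit, which was read from its fractional values and from totals per library between 338034 and 474156. Whole reads could not be recovered from low values, so depth is unknown and counting error is not given. The submitters' processing notes list Bowtie2 2.1.0, STAR, edgeR and hg38 without a role. The sources used here do not give the counter, annotation or strand setting. Of the 21 samples in the series, 12 are circular RNA libraries, not analysed here. All labels carry 1 extraction protocol, which names RNase R and a shorter treatment than the 8 days given for these samples.

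The 13775 genes that reached 1 FPKM in 3 or more libraries were log-transformed, log2(FPKM + 1), and fitted in limma 3.58.1 (R 4.3.3) by 1 model on group over all 9 libraries, empirical Bayes with trend and robust variance, two-sided, with Benjamini-Hochberg adjustment over all genes and a threshold of 0.05. No count test was run on these normalized values. The step was tested on simulated data. Libraries of the same group correlated across genes at Pearson's r of 0.986 to 0.994, and none were duplicates. Values in each library are given for the regulators and for the 3 genes of each class with the largest called differences, and up to 3 called genes are named of each other list and comparison. Some listed genes outside the 36 are not reported here and are left out of the counts of their lists. The members, lists and tests were chosen with earlier results of these data known. Alternatives were 21 settings: other scalings, filters, pseudocounts, a fit without trend, a fit of the compared groups, a replicate block, a fold limit and leaving out each library. Promoter letters were searched with Python 3.11.15 in RefSeq windows of GRCh38.p14, and positions and overlaps are from RefSeq.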

Additional observations from a re-analysis of the deposited data

How the results depend on the processing

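Over 21 alternative settings, 69 of the 82 called differences of the 36 genes were called under every setting that tested the gene, apart from the fold limit. The same held for 53 of the 64 of the other pathway genes. Low genes, such as ELOVL6, SC5D and ABCG1, stayed below 5 FPKM in every library and were not tested with the filter at 5 FPKM. The count of genes higher in Osi_Lin_EV than in DMSO_EV went from 4 to 2 without a filter and with a pseudocount of 5, and to between 2 and 4 when a library was left out. It was 2 without DMSO_EV replicate 1, DMSO_EV replicate 2 or Osi_Lin_EV replicate 1, the genes lost being ABCA1 and SC5D. The count lower there, 23, was 19 to 22 when a library was left out. With equal totals, 3 rather than 5 genes were lower in Osi_cIGF1R than in DMSO_EV, and the difference of NSDHL in that comparison turned to 0.22. These counts were 19 to 21 higher and 5 to 6 lower when a library was left out, and 26 to 27 higher and 3 to 4 lower between the treated groups. A limit of 1 on the log2 difference left 1 higher and 2 lower, 8 higher and 1 lower, and 12 higher and 0 lower in the 3 comparisons in the order of the report. The causes of these changes were not tested beyond what each setting does by construction.

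With the replicate number as a block, 3 genes were higher and 21 lower in Osi_Lin_EV than in DMSO_EV, 20 and 5 in Osi_cIGF1R than in DMSO_EV, and 27 and 3 between the treated groups. The labels do not say that a number marks a shared culture, and deviations of same-numbered libraries correlated between -0.315 and 0.0358, so the numbers were not taken to pair libraries.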
